A study of Homo sapiens with 8 samples.

Results

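Heat shock proteins and their co-chaperones were followed through 8 RNA sequencing libraries of a human leukaemia cell line. The set held every gene whose symbol begins with HSPA, HSPB, HSPD, HSPE, HSPH, HSP90 or DNAJ, or with BAG and a digit, and that had at least 1 count. HSPBAP1, HSPBP1 and names of antisense transcripts were left out, and no name was that of a pseudogene. This gave 75 of the 26786 genes with any count: 12 of the HSP70 family, 3 of the HSP110 family, 3 HSP90 genes, 5 small heat shock proteins, both subunits of the mitochondrial chaperonin, 44 J-domain proteins and 6 BAG genes. A further 4 names met the rule on symbols and had 0 counts in every library, namely HSPB3 and the read-through loci DNAJC25-GNG10, HSPB2-C11orf52 and HSPE1-MOB4.

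The most abundant chaperone transcripts differed little between the groups, and most members that passed the test moved by small amounts. HSPA8, the constitutive cytosolic HSP70, went from 1636 ± 52.0 CPM (MOCK) to 1616 ± 42.1 CPM (RRM2_OE; mean ± SD, n = 4), a difference smaller than the spread of the libraries. CPM is a count scaled to the size of its library, MOCK the empty vector and RRM2_OE the mutant. Of 66 members that could be tested, 7 rose in RRM2_OE, namely the J-domain genes DNAJB2, DNAJC1, DNAJA4 and DNAJB5, the HSP70 genes HSPA6 and HSPA13, and the co-chaperone gene BAG2. DNAJC13 alone fell. These were 10.6% and 1.52% of the members, beside 7.41% and 5.42% of all genes tested, and both directions together 12.1% beside 12.8%. Apart from HSPA6, a rare transcript that rose 1.84-fold, the rises were of 1.12- to 1.28-fold. HSP90AB1 and HSP90B1 missed the threshold and were lower in a fit that takes replicate number into account.

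Chaperones of the HSP70 family bind short hydrophobic stretches of unfolded proteins and let go of them in a cycle driven by ATP. J-domain proteins bring clients and speed up hydrolysis, while BAG proteins and the HSP110 family exchange the nucleotide and so end the cycle. HSP90 acts later, on nearly folded clients such as kinases and steroid receptors, and HSF1 turns on many of these genes when proteins unfold.

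The cells, which the labels call THP1 (a monocytic line from a patient with acute leukaemia), were engineered with an empty vector (MOCK, 4 libraries) or with the iRxI/AxA mutant (4 libraries, called RRM2_OE after their column names). RRM2 is part of the reductase that supplies deoxyribonucleotides, and all cells of both groups received doxycycline at 2 µg/mL. The question put by the design was which transcripts differ between mutant and MOCK cells. The labels do not say whether replicates were separate cultures or whether the cells were clones, so a p-value here speaks only of the spread among these libraries, which may be technical.

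Library totals lay between 10994255 and 11686152 counts. RRM2 itself stood at 116 to 128 CPM in the MOCK libraries and at 215 to 236 CPM in the RRM2_OE libraries. The 12 monocytic markers checked were all detected, 10 of them at 1 CPM or more in every library, and summed to 3390 to 3488 CPM in MOCK and 3229 to 3332 CPM in RRM2_OE. The sum does not speak for each marker: of 11 tested, 7 rose, CD14 and CSF1R among them, and MPO, the neutrophil peroxidase, fell (edgeR). Of all genes tested 7.41% rose and 5.42% fell. The 8 T and NK cell markers summed to 196 to 208 CPM in MOCK and 287 to 297 CPM in RRM2_OE, the 10 erythroid and mast cell markers to 1173 to 1257 and 1069 to 1196 CPM, the 6 epithelial and fibroblast markers to 37.8 to 44.0 and 42.1 to 46.4 CPM, and the 4 B cell markers to 4.16 to 6.25 and 5.61 to 7.84 CPM. Calls were made in these lists too (edgeR). Of 6 T and NK cell markers tested 6 rose, and of 10 erythroid and mast cell markers 1 rose and 3 fell. Of 2 B cell markers tested 1 rose, as did 1 of 3 epithelial and fibroblast markers. None of these markers was at 0 counts in all libraries, and CDKN2A, commonly described as deleted in THP1, stood at 44.6 to 56.3 CPM. The part of such transcripts in the results on chaperones was not tested, and in bulk RNA a change in the number of cells of a type and a change in RNA per cell cannot be told apart. Replicates 1 and 3 stood apart from replicates 2 and 4 in both groups, as described with the values it touches.

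Levels between genes were compared per length, as the authors' RPKM (reads scaled to exon length and to the size of the library). HSP90AB1, the constitutive HSP90, had a mean of 352 RPKM over the 8 libraries, with a range of 293 to 410.4. HSPA8 followed at 335 RPKM with a range of 322 to 349.9, so that the ranges of these leading genes overlapped. Their order rests on the exon lengths in the count table, 2796 bases for HSP90AB1 and 4849 for HSPA8. HSPA8 had more counts, 148078 against 89534 over the 8 libraries. Next came HSP90AA1 at 223 RPKM, then the endoplasmic reticulum chaperones HSPA5 (also called BiP) at 178 and HSP90B1 (GRP94) at 177 RPKM. DNAJA1, a main J-domain partner of HSPA8, was the most abundant co-chaperone at 79.8 RPKM, close to the mitochondrial HSP70 gene HSPA9 at 77.2 RPKM. The heat-inducible pair HSPA1A and HSPA1B lay far lower, at 16.7 and 4.73 RPKM, with the reservation that their sequences are nearly identical and reads may be split or lost between them. HSPE1 reached 4.63 RPKM against 48.0 RPKM for HSPD1, its partner in the mitochondrial chaperonin. Since HSPE1 overlaps the read-through locus HSPE1-MOB4 and how the counting treated shared reads is not given, its level is uncertain. Together the 75 members took 0.858% to 0.988% of the counts of a library.

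**Figure D1:**
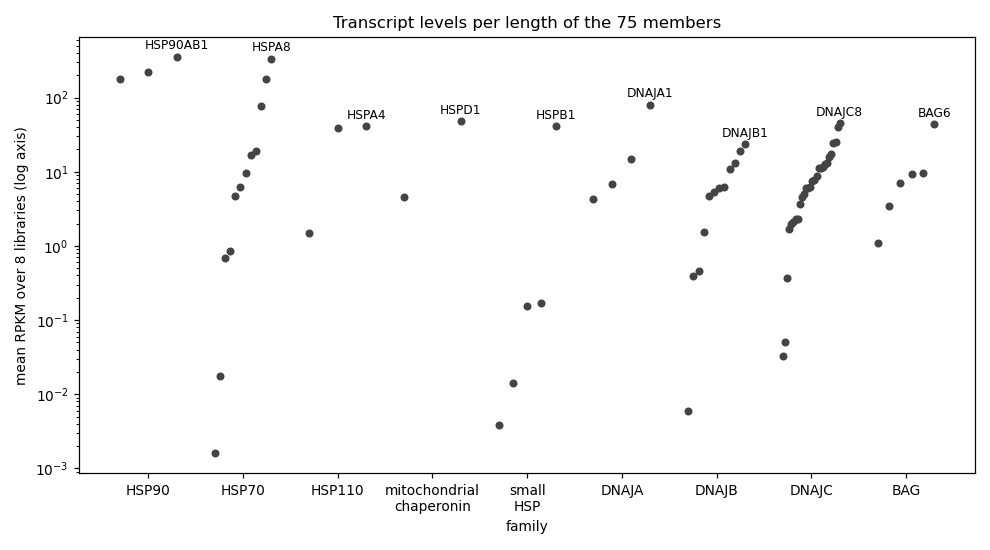
Mean RPKM over 8 libraries (log axis) of each of the 75 members, 1 point per gene, by family, with the most abundant gene of each family named. HSP90AB1 at 352 and HSPA8 at 335 RPKM top the plot. The HSP90 genes lie close together on this axis, while the HSP70, DNAJB and DNAJC genes spread over a wide range.

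The test could not be run on 9 members, which had too few counts. They were the small heat shock genes HSPB2, HSPB6, HSPB7 and HSPB8, the J-domain genes DNAJB8, DNAJC22 and DNAJC5G, and the distant HSP70 relatives HSPA12A and HSPA12B, with 1 to 56 counts over all 8 libraries together. For the other 66, counts were compared with the quasi-likelihood test of edgeR, adjusted by Benjamini-Hochberg over all 15286 genes tested, and a threshold of 0.05. The 8 calls, 12.1% of the members tested against 12.8% of all genes, were thus a share close to the background. The span of 9 of the 75 members overlaps another gene on the same strand and that of 41 on the opposite strand, and whether the counting used strand is not given, so reads from such pairs cannot be told apart. The median log2 fold change of the members was 0.03, beside -0.0028 over all genes. Their median absolute log2 fold change was 0.08, beside 0.12 over all genes, and single values ran from -0.30 for DNAJC28 to 0.88 for HSPA6. In 27 of the 66 the 95% interval lay within a log2 change of 0.25 in either direction.

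All 4 RRM2_OE libraries lay above all 4 MOCK libraries for 9 members, 13.6% of those tested (10.5% of all genes), and below them for 3, 4.55% (8.89% of all genes). Replicate number was also entered as a block, because same-numbered libraries of the 2 groups deviated together. Libraries with numbers both odd or both even did so as well (correlations of 0.22 to 0.29). A library correlated best with its own number in 1 case of 8. Same-numbered pairs (0.22 to 0.25) were thus no closer than other pairs with both numbers odd or both even. Pairing by number is not told apart from the odd/even split. With it 13 members were higher, 19.7% against 15.1% of all genes, and 5 were lower, 7.58% against 14.0% of all genes. The 8 calls made without the block were all kept, and the block added 10 further members. An odd/even term added the same 10 and HSPA9. Without a block, 3 of the 10 were also called in replicates 1 and 3 alone and 8 in replicates 2 and 4 alone. On the log2(RPKM + 1) scale, tested with limma, 4 members were higher and 0 lower, and over all genes the split was 1017 to 463, beside 1133 to 829 on counts. DESeq2 called 1 member higher, DNAJB2, and 1 lower, DNAJC13, while over all genes it called 943 higher and 751 lower. The closeness of the members' share to the background thus holds for edgeR and not for DESeq2.

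**Figure D2:**
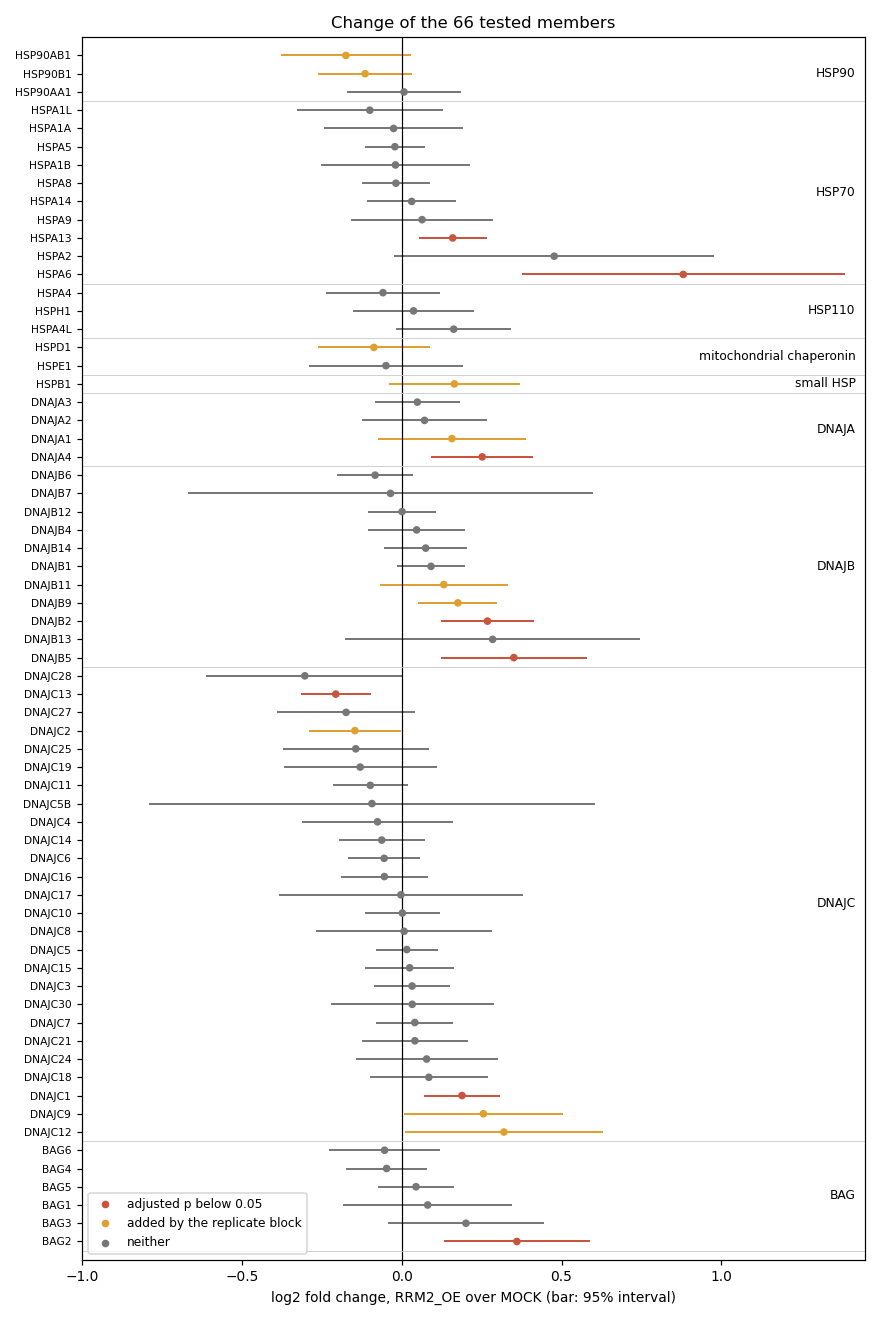
Log2 fold change of RRM2_OE over MOCK for the 66 tested members, grouped by family, with 95% intervals from the edgeR fit without the block as bars. Colours mark the 8 members with an adjusted p below 0.05, the 10 added by the replicate block, and the rest. The values run from -0.30 to 0.88, and most intervals cross 0.

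Among the 10 tested HSP70 genes 2 rose and 0 fell, while 7.41% of all genes tested rose and 5.42% fell. The median log2 fold change of these 10 genes was 0.01. HSPA6 encodes an HSP70 that human cells make mostly under severe stress. Its gene (ENSG00000173110, hg19 chr1:161494036-161496681) gave 1.5, 0.885, 1.52 and 1.17 CPM in MOCK and 2.09, 3.05, 2.25 and 1.99 CPM in RRM2_OE. Every RRM2_OE library lay above every MOCK library, and the mean went from 1.27 ± 0.303 CPM (MOCK) to 2.34 ± 0.482 CPM (RRM2_OE; ± SD, n = 4). RRM2_OE over MOCK gave a log2 fold change of 0.88 (SE 0.23, 95% interval 0.38 to 1.38, edgeR adjusted p = 0.0262). Only 165 counts over the 8 libraries stand behind these values, and the gene had 0.682 RPKM. The change was 0.52 between replicates 1 and 3 of the groups and 1.29 between replicates 2 and 4. The call was lost on leaving out MOCK replicate 2 or 4 or RRM2_OE replicate 2 or 3 (adjusted p up to 0.0748), and by DESeq2 (adjusted p = 0.0514). HSPA6 lies inside an unnamed gene (ENSG00000273112) on the same strand, which had 8 counts in all. The Fc receptor gene FCGR2A, looked at after these values were seen, ends 232 bases before HSPA6 on the same strand. It had 4171 counts and also rose (log2 fold change 0.76, edgeR adjusted p = 5.84e-06). Whether reads from FCGR2A contribute to the HSPA6 counts was not tested.

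HSPA13 encodes a microsomal relative of HSP70 that lacks the part binding clients. Its values (ENSG00000155304, hg19 chr21:15743436-15755805) were 74.1, 73.9, 77.0 and 77.6 CPM in MOCK and 82.8, 85.7, 80.9 and 88.6 CPM in RRM2_OE. The groups did not overlap, and the difference was small. This was a log2 fold change of 0.16 (SE 0.05, 95% interval 0.06 to 0.26, edgeR adjusted p = 0.0438). The call was lost on leaving out any single library (adjusted p 0.0518 to 0.119), with DESeq2 (adjusted p = 0.0840), with library sizes as the only scaling and without the filter on low counts.

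No other HSP70 gene passed the test with or without the block. The largest log2 fold change among these others was 0.48, in a gene not named here, and those named below were smaller. HSPA8 gave 1622, 1699.9, 1575 and 1648 CPM in MOCK and 1576, 1615, 1599 and 1674 CPM in RRM2_OE. The groups overlapped throughout, and the log2 fold change was -0.02 (SE 0.05, 95% interval -0.12 to 0.09, edgeR adjusted p = 0.864). HSPA5, the HSP70 of the endoplasmic reticulum and a target of the unfolded protein response, gave 673, 708, 712 and 708 CPM in MOCK and 686, 703, 679 and 692 CPM in RRM2_OE, and the log2 fold change was -0.02 (SE 0.04, 95% interval -0.11 to 0.07, edgeR adjusted p = 0.809). For HSPA9, which pulls proteins into the mitochondrial matrix, the log2 fold change was 0.06 (SE 0.10, 95% interval -0.15 to 0.28, edgeR adjusted p = 0.747). Within replicates 1 and 3, and within replicates 2 and 4, both RRM2_OE libraries of HSPA9 lay above both MOCK libraries, and a fit with an odd/even term called it. The inducible HSPA1A gave 37.6, 46.5, 35.5 and 44.6 CPM in MOCK and 37.9, 43.5, 35.4 and 44.5 CPM in RRM2_OE, and the log2 fold change was -0.03 (SE 0.10, 95% interval -0.24 to 0.19, edgeR adjusted p = 0.909). Both groups ran over the same span of values, with replicates 2 and 4 above replicates 1 and 3. Its near-identical copy HSPA1B gave a log2 fold change of -0.02 (SE 0.11, 95% interval -0.25 to 0.21, edgeR adjusted p = 0.935). HSPA14, which works with DNAJC2 on the ribosome, gave a log2 fold change of 0.03 (SE 0.06, 95% interval -0.10 to 0.17, edgeR adjusted p = 0.812). Over all 8 libraries the groups overlapped in each of these HSP70 genes. In the HSP110 family none of 3 genes passed the test with edgeR, 0 had an unadjusted p below 0.05, and DESeq2 called 0. HSPH1 gave a log2 fold change of 0.04 (SE 0.08, 95% interval -0.15 to 0.22, edgeR adjusted p = 0.840), and HSPA4 gave a log2 fold change of -0.06 (SE 0.08, 95% interval -0.23 to 0.12, edgeR adjusted p = 0.708).

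Promoter sequences were taken from RefSeq (GRCh38.p14), which held 67 of the 75 members, as 250 bases before and 50 after the start of each gene. They are shown because HSPA6 rose while HSPA8 did not, and because HSPA5 and HSP90B1 are the classical promoters of the endoplasmic reticulum stress response. Coordinates below are of GRCh38.p14 and are not mixed with those of the count table, which are of hg19. A heat shock element was searched on both strands as 3 units of 3 bases, GAA then TTC then GAA or TTC then GAA then TTC, 2 bases apart. It was present in 4 members (HSPA6, HSPA8, DNAJA1 and DNAJB6), 5.97% of those matched, and in 133 of all 27305 promoters, 0.487%. Of these 4, 1 rose (HSPA6), while 7.41% of all genes tested rose. The log2 fold changes of the other 3 were -0.02 for HSPA8, 0.16 for DNAJA1 and -0.08 for DNAJB6. Capitals mark the element in the bases before the start, 5′ to 3′ along the gene, for HSPA6 (chr1:161524390-161524539, plus strand) and HSPA8 (chr11:123062137-123062386, minus strand).
HSPA6: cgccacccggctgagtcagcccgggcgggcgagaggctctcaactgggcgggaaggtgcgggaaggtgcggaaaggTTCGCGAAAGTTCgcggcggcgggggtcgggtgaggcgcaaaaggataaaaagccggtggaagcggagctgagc
HSPA8: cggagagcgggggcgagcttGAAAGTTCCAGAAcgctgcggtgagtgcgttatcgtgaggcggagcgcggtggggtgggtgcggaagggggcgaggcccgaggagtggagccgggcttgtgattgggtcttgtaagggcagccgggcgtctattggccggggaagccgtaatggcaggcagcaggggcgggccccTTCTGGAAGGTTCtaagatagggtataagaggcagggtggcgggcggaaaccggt
The element began 74 bases before the start in HSPA6, and 230 and 55 bases before it in HSPA8. In DNAJA1 it lay after the start, at bases 4 to 16. The ER stress element, CCAAT and then 9 free bases and then CCACG on either strand, was present in HSPA5 and HSP90B1, 2.99% of matched members, and in 22 of all promoters, 0.0806%. It is in capitals for HSPA5 (chr9:125241344-125241493, minus strand) and HSP90B1 (chr12:103930160-103930409, plus strand), neither of which passed the test without the block.
HSPA5: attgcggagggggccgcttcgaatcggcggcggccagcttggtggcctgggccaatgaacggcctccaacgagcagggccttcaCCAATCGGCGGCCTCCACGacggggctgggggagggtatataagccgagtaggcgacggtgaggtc
HSP90B1: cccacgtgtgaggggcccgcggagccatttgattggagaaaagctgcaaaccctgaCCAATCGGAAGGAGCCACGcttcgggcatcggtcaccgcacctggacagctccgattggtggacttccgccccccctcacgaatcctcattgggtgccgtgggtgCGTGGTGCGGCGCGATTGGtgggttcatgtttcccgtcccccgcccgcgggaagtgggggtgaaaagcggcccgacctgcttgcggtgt
A match describes these letters only and does not show that a factor was bound. Only exact matches within these bases were counted, so a promoter without a match may still hold an imperfect or more distant element.

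Of 41 J-domain genes tested, 4 rose and 1 fell, with a median log2 fold change of 0.03. That is 12.2% called, near the 12.8% of all genes. With the block 9 rose and 2 fell, 26.8% against 29.1% of all genes. DNAJC13, which recruits HSPA8 to endosomes, was the member with the smallest adjusted p. The gene (ENSG00000138246, hg19 chr3:132136370-132257876) gave 127, 136, 134 and 137 CPM in MOCK and 113, 119, 109.5 and 123 CPM in RRM2_OE. All RRM2_OE libraries lay below all MOCK libraries, the mean going from 134 ± 4.62 CPM (MOCK) to 116 ± 5.85 CPM (RRM2_OE; ± SD, n = 4). The log2 fold change was -0.21 (SE 0.05, 95% interval -0.31 to -0.10, edgeR adjusted p = 0.0154). This call held on leaving out each library in turn (adjusted p 0.0149 to 0.0497) and by DESeq2, and it was lost on the log2 RPKM scale.

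DNAJB2 encodes a J-domain protein that binds ubiquitin and passes clients to the proteasome. Its values (ENSG00000135924, hg19 chr2:220143989-220151622) were 32.7, 31.0, 33.1 and 30.4 CPM in MOCK and 41.2, 35.0, 38.6 and 38.3 CPM in RRM2_OE. The lowest RRM2_OE library lay above the highest MOCK library. RRM2_OE over MOCK gave a log2 fold change of 0.27 (SE 0.07, 95% interval 0.13 to 0.41, edgeR adjusted p = 0.0178). The change was nearly the same between replicates 1 and 3 (0.28) and between replicates 2 and 4 (0.26). Leaving out MOCK replicate 2, MOCK replicate 4 or RRM2_OE replicate 1 ended the call (adjusted p up to 0.0577).

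DNAJC1, a membrane protein of the endoplasmic reticulum that brings HSPA5 to ribosomes, was the most abundant of those that rose, at 40.3 RPKM. Its values (ENSG00000136770, hg19 chr10:22045466-22292698) were 89.6, 95.6, 95 and 96.7 CPM in MOCK and 109, 111, 97.2 and 112 CPM in RRM2_OE. RRM2_OE replicate 3, at 97.2 CPM, came within 1 CPM of the highest MOCK library. This was a log2 fold change of 0.19 (SE 0.05, 95% interval 0.07 to 0.31, edgeR adjusted p = 0.0368). The call was kept on leaving out RRM2_OE replicate 3 and lost on leaving out any other library (adjusted p up to 0.0985), and by DESeq2 (adjusted p = 0.0502).

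DNAJA4, a cytosolic relative of DNAJA1, gave (ENSG00000140403, hg19 chr15:78556428-78574538) 23.3, 27.4, 24.5 and 28.4 CPM in MOCK and 30.6, 30.4, 30.9 and 31.3 CPM in RRM2_OE. The RRM2_OE libraries lay close together above the MOCK range. DNAJA4 overlaps SKIC8 on the opposite strand. The log2 fold change was 0.25 (SE 0.07, 95% interval 0.10 to 0.41, edgeR adjusted p = 0.0372). The call was kept on leaving out MOCK replicate 2 or 4 and lost without any other library (adjusted p up to 0.1), and by DESeq2 (adjusted p = 0.0569). DNAJB5, a close relative of DNAJB1, gave (ENSG00000137094, hg19 chr9:34989638-34998897) 7.22, 8.05, 8.78 and 8.08 CPM in MOCK and 11.6, 9.84, 10.1 and 9.50 CPM in RRM2_OE. Its groups did not overlap. RRM2_OE over MOCK gave a log2 fold change of 0.35 (SE 0.10, 95% interval 0.13 to 0.58, edgeR adjusted p = 0.0437). It lost its call on leaving out any single library (adjusted p 0.0508 to 0.127), and by DESeq2 (adjusted p = 0.0993).

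**Figure D3:**
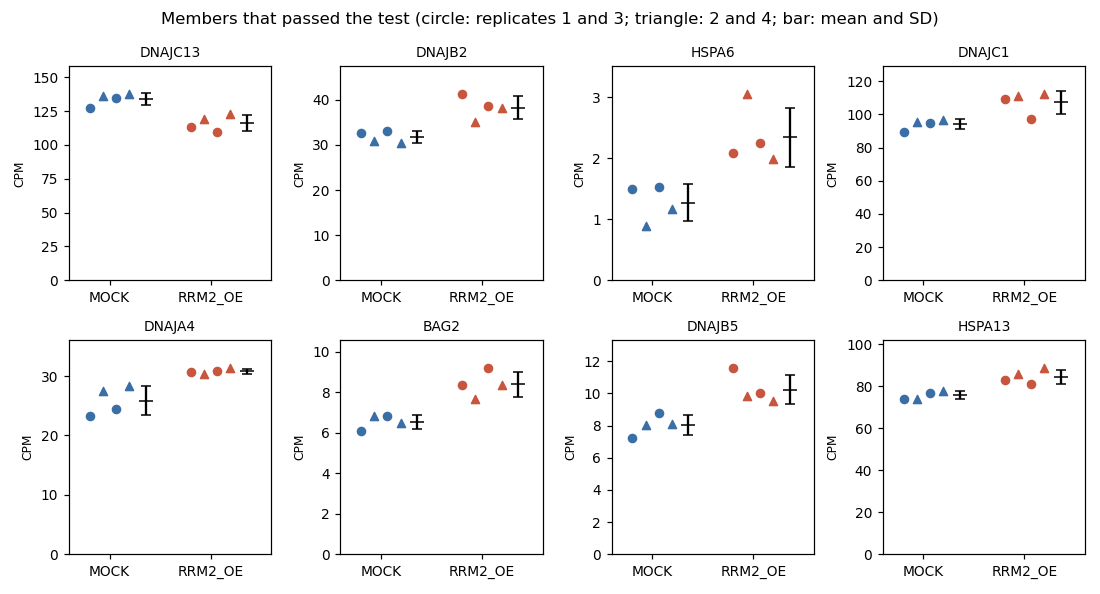
CPM in every library of the 8 members that passed the test, in order of adjusted p, with MOCK on the left and RRM2_OE on the right of each panel (circles, replicates 1 and 3; triangles, replicates 2 and 4; bars, mean and SD, n = 4). The groups do not overlap in any of the 8 panels; DNAJC13 is lower in RRM2_OE and the other 7 are higher.

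Further J-domain genes missed the threshold over all libraries and passed with the block. DNAJA1 gave 173, 222, 194 and 234 CPM in MOCK and 205, 254, 207 and 253 CPM in RRM2_OE. Replicates 2 and 4 lay above replicates 1 and 3 within each group, and within either set the RRM2_OE libraries lay above the MOCK libraries. This was a log2 fold change of 0.16 (SE 0.10, 95% interval -0.07 to 0.39, edgeR adjusted p = 0.381), and with the block the adjusted p was 1.20e-04. DNAJC9, a co-chaperone of histones, showed the same layout, going from 40.4 ± 6.17 CPM (MOCK) to 48.2 ± 5.84 CPM (RRM2_OE; SD, n = 4; log2 fold change 0.26, SE 0.11, 95% interval 0.01 to 0.50, edgeR adjusted p = 0.170; with the block the adjusted p was 1.67e-04). Its span overlaps MRPS16 on its own strand and DNAJC9-AS1 on the other, and whether the counting used strand is not given. DNAJC12, known for its binding to aromatic amino acid hydroxylases, went from 11.3 ± 1.84 CPM (MOCK) to 14.1 ± 2.37 CPM (RRM2_OE; with the block the adjusted p was 0.00584), and its groups overlapped within replicates 1 and 3. DNAJC2, the ribosome-bound partner of HSPA14, went the other way, from 60.7 ± 4.99 CPM (MOCK) to 54.8 ± 2.63 CPM (RRM2_OE; with the block the adjusted p was 0.0206), also with overlap within replicates 1 and 3.

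Among J-domain partners of HSPA5 inside the endoplasmic reticulum, DNAJB9 and DNAJB11 were higher with the block. DNAJB9, a target and a brake of the stress sensor IRE1, gave 34.6, 33.3, 35.2 and 34.9 CPM in MOCK and 38.9, 39.5, 37.2 and 40.4 CPM in RRM2_OE, with no overlap between the groups. Without the block it missed the threshold on counts (log2 fold change 0.18, SE 0.06, 95% interval 0.06 to 0.30, edgeR adjusted p = 0.0566), and with the block the adjusted p was 0.0146. It was also called without the block by limma on both log2 RPKM scales. DNAJB11 went from 111 ± 12 CPM (MOCK) to 122 ± 13.9 CPM (RRM2_OE; log2 fold change 0.13, SE 0.09, 95% interval -0.07 to 0.33, edgeR adjusted p = 0.398; with the block the adjusted p was 0.00415). DNAJC3, an inhibitor of eIF2 alpha kinases and a further partner of HSPA5, gave a log2 fold change of 0.03 (SE 0.05, 95% interval -0.08 to 0.15, edgeR adjusted p = 0.762). The heat-inducible DNAJB1, a principal J-domain protein of the heat shock response, gave 77.4, 85.3, 84.6 and 85.2 CPM in MOCK and 88.9, 91.2, 86.6 and 87.6 CPM in RRM2_OE. Its groups did not overlap, yet the log2 fold change was 0.09 (SE 0.05, 95% interval -0.01 to 0.20, edgeR adjusted p = 0.245). The mitochondrial genes DNAJA3 and DNAJC19 gave log2 fold changes of 0.05 (adjusted p = 0.667, edgeR) and -0.13 (adjusted p = 0.503, edgeR).

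Of the 6 BAG genes 1 rose and 0 fell, 16.7% called against 12.8% of all genes, with a median log2 fold change of 0.06. BAG2 is an exchange factor of HSPA8 that inhibits the ubiquitin ligase STUB1. The gene (ENSG00000112208, hg19 chr6:57037124-57054631) gave 6.07, 6.81, 6.81 and 6.46 CPM in MOCK and 8.35, 7.66, 9.19 and 8.38 CPM in RRM2_OE. All RRM2_OE libraries lay above all MOCK libraries. The log2 fold change was 0.36 (SE 0.10, 95% interval 0.14 to 0.58, edgeR adjusted p = 0.0382). The call was kept on leaving out RRM2_OE replicate 2 and lost without any other single library (adjusted p up to 0.109), and by DESeq2 (adjusted p = 0.118). BAG2 overlaps RAB23 on the opposite strand. BAG3, the stress-inducible member that steers clients to autophagy, went from 8.87 ± 1.09 CPM (MOCK) to 10.2 ± 0.836 CPM (RRM2_OE; SD, n = 4; log2 fold change 0.20, SE 0.11, 95% interval -0.04 to 0.44, edgeR adjusted p = 0.277). BAG1 gave a log2 fold change of 0.08 (SE 0.12, 95% interval -0.18 to 0.34, edgeR adjusted p = 0.727), and BAG6, which guards newly made membrane proteins, gave a log2 fold change of -0.05 (SE 0.08, 95% interval -0.22 to 0.12, edgeR adjusted p = 0.727).

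None of the 3 HSP90 genes passed the test without the block (edgeR), with 0 at an unadjusted p below 0.05 and 0 called by DESeq2. With the block 2 were lower, 66.7% against 14.0% of all genes and 29.2% of genes with a mean of at least 100 CPM, a level that all 3 exceed. HSP90AB1 gave 944, 1158, 949.9 and 1122 CPM in MOCK and 828, 1004, 835 and 1030.5 CPM in RRM2_OE. The groups overlapped as a whole, but within replicates 1 and 3, and again within replicates 2 and 4, both RRM2_OE libraries lay below both MOCK libraries. RRM2_OE over MOCK gave a log2 fold change of -0.17 (SE 0.09, 95% interval -0.37 to 0.03, edgeR adjusted p = 0.251), and with the block the adjusted p was 1.86e-06. HSP90B1 gave 791, 905, 813 and 938 CPM in MOCK and 756, 850.3, 741 and 836 CPM in RRM2_OE, with the same layout. This was a log2 fold change of -0.11 (SE 0.07, 95% interval -0.26 to 0.03, edgeR adjusted p = 0.306), and with the block the adjusted p was 7.94e-04. HSP90AA1 gave 1066, 1268, 1070.4 and 1263 CPM in MOCK and 1064, 1278, 1085 and 1264 CPM in RRM2_OE. The ranges of the groups nearly coincided, and the log2 fold change was 0.01 (SE 0.08, 95% interval -0.17 to 0.18, edgeR adjusted p = 0.968). HSP90AA1 was not called with the block.

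HSPB1, also called HSP27, was the only small heat shock gene with enough counts. It gave 71.4, 60.8, 67.0 and 54.0 CPM in MOCK and 78.3, 64.8, 76.4 and 64.4 CPM in RRM2_OE. Replicates 1 and 3 were the higher ones in both groups, the reverse of the HSP90 genes. The log2 fold change was 0.16 (SE 0.09, 95% interval -0.04 to 0.37, edgeR adjusted p = 0.285), and with the block the adjusted p was 0.00344. Of the mitochondrial chaperonin, HSPD1 gave 193, 219.7, 198 and 230.1 CPM in MOCK and 174, 219.7, 186 and 211 CPM in RRM2_OE. Its groups overlapped, and the log2 fold change was -0.09 (SE 0.08, 95% interval -0.26 to 0.09, edgeR adjusted p = 0.543), while with the block the adjusted p was 0.0253. HSPE1, whose span overlaps HSPD1 on the opposite strand, gave a log2 fold change of -0.05 (SE 0.11, 95% interval -0.29 to 0.19, edgeR adjusted p = 0.835).

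By compartment, 5 of 33 cytosolic and nuclear members rose and 0 fell, 15.2% called against 12.8% of all genes, with a median log2 fold change of 0.04. With the block 8 rose and 2 fell, 30.3% against 29.1% of all genes. Of 13 members of the endoplasmic reticulum 2 rose and 0 fell, 15.4%, with a median of 0.03, and with the block 4 rose and 1 fell, 38.5%. None of the 10 mitochondrial members passed the test with edgeR, where 0 had an unadjusted p below 0.05 and DESeq2 called 0. Their median was -0.06, and with the block 1 of them, HSPD1, was lower, 10.0% against 14.0% of all genes. Whether compartments differ was not tested. Of 13 members listed as classical heat-inducible genes 1 rose, HSPA6, and 0 fell, 7.69%, with a median of 0.04 beside 0.02 for the other 53 members tested. With the block 3 of the heat-inducible members rose and 1 fell, 30.8% against 29.1% of all genes. The list of heat-inducible members includes HSPA8, which is described above as constitutive. None of these shares was tested against the background.

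The odd-numbered libraries (replicates 1 and 3) and the even-numbered ones (replicates 2 and 4) stood apart in part of these genes, 22 of the 66 tested, within both groups. Since the split was already known from all genes, it is described with no test. HSP90AA1 stood at 1064 to 1085 CPM in the odd-numbered libraries and at 1263 to 1278 CPM in the even-numbered ones, whichever the group. In all, 18 of the 66 members had every odd-numbered library below every even-numbered one, 27.3% against 9.71% of all genes, and 4 had them above, 6.06% against 9.61%. Among the 18 were HSP90AA1, HSP90AB1 and HSP90B1, the HSP110 genes HSPH1 and HSPA4, HSPA1A, HSPA9, HSPD1, DNAJA1, DNAJA2 and BAG1. The log2 ratio of odd to even means was -0.28 for HSP90AB1, -0.26 for HSPH1, -0.30 for HSPA9, -0.31 for DNAJA1 and -0.29 for HSPA1A. HSPA8 and HSPA5 were not among them. The same layout was seen in 32 of 71 partner genes, which are described last (45.1%), among them 9 of 14 chaperonin and prefoldin genes and 7 of 13 mitochondrial partners.

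The split was frequent among abundant members. Of the 19 members with a mean of at least 100 CPM 13 were lower in all odd-numbered libraries, while 451 of 2372 genes, 19.0%, were so among all genes at that level. The 4 members that were higher in all odd-numbered libraries were HSPB1, BAG6, DNAJC5 and DNAJC30. The summed level of the 75 members was 8715 to 8895 CPM in the odd-numbered libraries and 9591 to 9824 CPM in the even-numbered ones. Between the groups it went from 9322 ± 534 CPM (MOCK) to 9189 ± 516 CPM (RRM2_OE; mean ± SD, n = 4), a difference smaller than the SD. Counts from the mitochondrial genome made up 8.02% to 9.51% of the odd-numbered and 6.43% to 7.69% of the even-numbered libraries, and their part in the split was not tested.

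**Figure D4:**
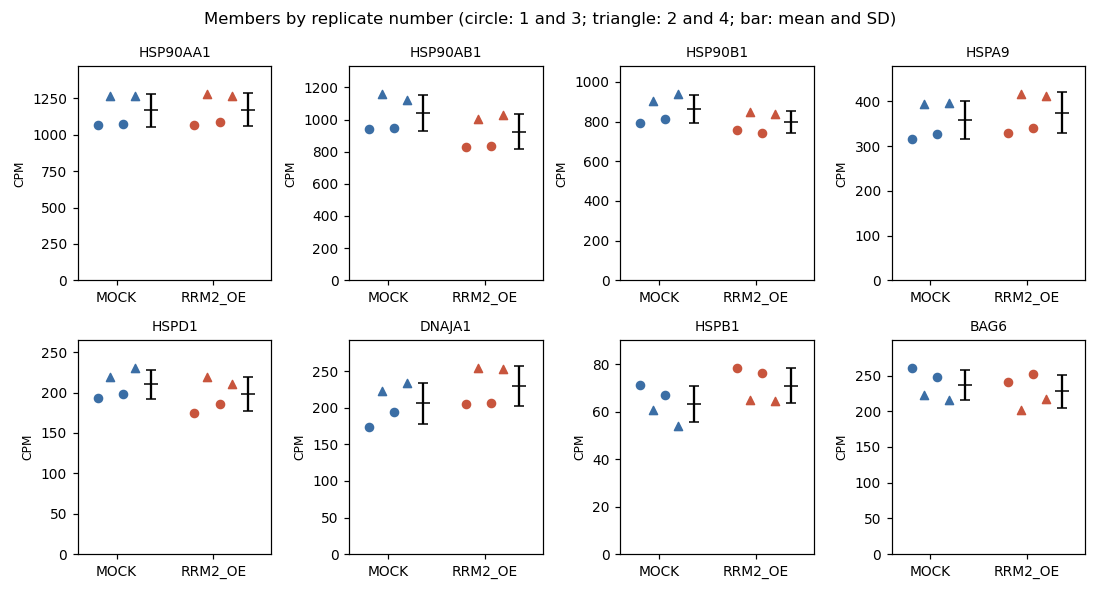
CPM in every library of 8 members, with MOCK on the left and RRM2_OE on the right of each panel (circles, replicates 1 and 3; triangles, replicates 2 and 4; bars, mean and SD, n = 4). Triangles lie above circles in both groups for HSP90AA1, HSP90AB1, HSP90B1, HSPA9, HSPD1 and DNAJA1, and below them for HSPB1 and BAG6; in HSP90AA1 the circles lie at 1064 to 1085 CPM and the triangles at 1263 to 1278 CPM.

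Other genes of the chaperone network were taken as 4 lists, 73 genes in the table, of which 71 were tested. Among them 1 rose and 4 fell, with a median log2 fold change of -0.02, and with the block 6 rose and 16 fell. Without the block 1.41% rose and 5.63% fell, against 7.41% and 5.42% of all genes, and with it 8.45% and 22.5%, against 15.1% and 14.0%. Of all genes with a mean of at least 100 CPM, 21.7% rose and 29.2% fell with the block. HSF1 gave -0.08 (adjusted p = 0.479, edgeR) and HSF2 gave 0.09 (adjusted p = 0.536, edgeR). Of 25 co-chaperones and regulators 0 rose and 1 fell, 4.0% called against 12.8% of all genes. The one that fell was HSPBP1, an exchange factor of HSP70, by 0.24 on the log2 scale (edgeR adjusted p = 0.0419), a call lost without any single library (adjusted p up to 0.117). STIP1, which hands clients from HSP70 to HSP90, gave -0.02, the kinase co-chaperone CDC37 gave 0.06, and the ligase STUB1 gave a value that rounds to 0 (edgeR adjusted p = 0.999). None of the 14 cytosolic chaperonin and prefoldin genes passed (edgeR), with 0 at an unadjusted p below 0.05 and 0 called by DESeq2. With the block 2 fell, 14.3% against 14.0% of all genes.

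Of 19 endoplasmic reticulum partners 1 rose and 2 fell, 15.8% called against 12.8% of all genes. With the block 3 rose and 7 fell, 52.6% against 29.1% of all genes. Abundant genes were called more often with the block, 50.9% of all genes with a mean of at least 100 CPM. CALR, the lectin chaperone calreticulin, fell from 2539.7 ± 105 CPM (MOCK) to 2164 ± 52.8 CPM (RRM2_OE; SD, n = 4; edgeR adjusted p = 0.0105). P4HB, a protein disulphide isomerase, fell from 1975 ± 56.1 CPM (MOCK) to 1727 ± 44.8 CPM (RRM2_OE; edgeR adjusted p = 0.0183), and HERPUD1, a component of the degradation machinery at the membrane, rose from 48.8 ± 1.49 CPM (MOCK) to 56.3 ± 1.91 CPM (RRM2_OE; edgeR adjusted p = 0.0201). Leaving out single libraries ended the P4HB call in 4 of 8 cases (without MOCK replicate 4 or RRM2_OE replicate 1, 3 or 4; adjusted p up to 0.0561) and the HERPUD1 call in 3 of 8 (without MOCK replicate 2 or 3 or RRM2_OE replicate 1; adjusted p up to 0.0631), and the CALR call in 0 of 8. HYOU1, the HSP110 of that compartment, gave -0.16 (adjusted p = 0.223, edgeR; with the block the adjusted p was 2.52e-04), and XBP1, the transcription factor downstream of IRE1, gave -0.14 (adjusted p = 0.101, edgeR; with the block the adjusted p was 2.41e-04).

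Of 13 mitochondrial partners 0 rose and 1 fell, 7.69% called against 12.8% of all genes, with a median of -0.09. CLPB, a disaggregase of the space between the mitochondrial membranes, gave 29.2, 28.8, 29.5 and 30.6 CPM in MOCK and 25.3, 19.2, 23.4 and 20.8 CPM in RRM2_OE. The groups did not overlap, and the log2 fold change was -0.41 (SE 0.08, 95% interval -0.59 to -0.23, edgeR adjusted p = 0.00678). That call held on leaving out each library in turn (adjusted p up to 0.0242). TRAP1, the mitochondrial HSP90, which the rule on symbols does not take, gave -0.20 (adjusted p = 0.0617, edgeR; with the block the adjusted p was 8.71e-04).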

How the data were processed

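Stranded poly(A) libraries were made from 200 ng of total RNA, per the labels' protocols. Tools named in the submitters' processing notes are HTSeq 0.11.2, TopHat2 and bcl2fastq 2.18.0.12, with hg19 as the build and no roles stated. Neither the annotation nor whether counting used strand is given in the sources used here. For 34618 Ensembl genes the authors deposited read counts in whole numbers, with exon lengths and hg19 coordinates, and a table of RPKM. Symbols were assigned by Ensembl ID from a table of current names and from GENCODE 29. The members, gene lists and rules were chosen with earlier results of these data known.

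Counts of all 8 libraries were compared by edgeR 4.0.16 under R 4.3.3 (filterByExpr, TMM factors, robust quasi-likelihood F test, group only, tested on simulated data). P-values were adjusted by the Benjamini-Hochberg method over 15286 genes and called below 0.05. In the simulated data, which held no odd/even split, 11 of 67 genes changed 1.2-fold were recovered. At 1.5-fold 64 of 67 were recovered, and at 2-fold 66 of 66. Changes near 1.2-fold were thus mostly missed there. The SE was the size of the log2 fold change divided by the square root of F, and CPM used TMM-scaled sizes. A biological coefficient of variation of 7.2% was typical, and the number of counts limits the precision of rare members.

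Same-numbered libraries of the groups deviated from their group means together (correlations of 0.22 to 0.25 in 4 pairs, all over 0.1), so replicate number was treated as a pairing read from the data and not from the labels. The library that a library correlated best with carried its own number in 1 case of 8, so same-numbered pairs were no closer than other pairs both odd or both even. Across the groups, correlations were 0.22 to 0.29 between numbers that were both odd or both even and -0.28 to -0.21 between odd and even.

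The text names every called member, 24 further members fixed by symbol, the called partner genes and 8 regulators. Other genes it names (DNAJC2, DNAJC9, DNAJC12, DNAJB6, DNAJC28, DNAJC5, DNAJC30, DNAJA2, the untested members, RRM2, CDKN2A, CD14, CSF1R and MPO) were chosen after their values were seen or to describe a count. TIMM23 was not matched, and CRYAB and TTC4 were not tested. Alternatives were DESeq2 1.42.0, limma-voom (limma 3.58.1), RLE factors, library sizes only, other low count filters, the replicate block, an odd/even term, each parity alone, limma on log2 RPKM (pseudocount 1 or 0.1), a threshold of 0.01 and leaving out each library. Protein sequences were not analysed here.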

Additional observations from a re-analysis of the deposited data

Results flagged for a closer look

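In 2 of 92 sets of 4 libraries checked, each the values of 1 named gene in 1 group, the lowest or highest library stood apart from the other 3. DNAJB1 was at 77.4 CPM in MOCK replicate 1 and at 84.6 to 85.3 CPM in the other MOCK libraries. HSPA5 was at 673 CPM in MOCK replicate 1 and at 708 to 712 CPM in the other MOCK libraries. Chance sets a library apart in about 1 of 20 such sets when the 4 libraries vary independently. That does not hold with the odd/even split and with genes that share the same libraries, so 2 of 92 cannot be judged by this rate. Neither gene passed the test between the groups with all libraries.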

How the results depend on the processing

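The calls among members rested on small differences, and their number depended on the setting. Against 7 members higher, DESeq2 gave 1, no low count filter 4, the replicate block 13, the odd/even term 14, limma on log2(RPKM + 1) 4 and on log2(RPKM + 0.1) 3, an adjusted p below 0.01 gave 0, and leaving out single libraries 1 to 2. Against 1 member lower, the replicate block and the odd/even term gave 5 each, replicates 1 and 3 alone gave 2, replicates 2 and 4 alone 4, and both RPKM scales and an adjusted p below 0.01 gave 0. Voom, RLE factors and the filter of 1 CPM in 4 libraries kept all 8 calls, and leaving out a library kept 2 or 3 of them.

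Over all genes, 1133 higher became 2303 with the replicate block, 2427 with the odd/even term and 530 at an adjusted p below 0.01. DESeq2 gave 943 higher and 751 lower. The 829 lower became 2143, 2277 and 281 in the same order, 1330 in replicates 1 and 3, 463 and 453 on the RPKM scales and 542 to 607 without single libraries. Among partner genes, 1 higher became 2 with library sizes only, without the low count filter and in replicates 2 and 4, 3 in replicates 1 and 3, 6 with the replicate block and with the odd/even term, 0 at an adjusted p below 0.01 and 0 to 2 without single libraries. The 4 lower became 16 with the block and with the odd/even term, 12 in replicates 1 and 3, 9 in replicates 2 and 4, 2 on both RPKM scales, 1 at an adjusted p below 0.01 and 2 to 4 without single libraries. The cause of these shifts was not tested, apart from the fewer samples or the stricter threshold that a setting itself brings.

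The sign changed for genes that had not been called, at values near 0 in nearly every case. HSP90AA1 gave -4.71e-04 without the low count filter. In replicates 2 and 4, HSPA14 gave -0.00466, HSPA1B 0.189 and HSF2 -0.0474. In replicates 1 and 3, HSPA1A gave 0.00221, HSPE1 0.0120 and STUB1 0.0328. STUB1 also gave 1.87e-04 with voom, 0.0128 with library sizes only, and 0.0127 and 0.0130 on the RPKM scales. Without single libraries the log2 fold change ran from -0.00831 to 0.178 for BAG1, -0.107 to 0.00190 for BAG6, -0.0366 to 0.0512 for HSP90AA1, -0.00711 to 0.0589 for HSPA14, -0.0893 to 0.0398 for HSPA1A, -0.0724 to 0.0470 for HSPA1B, -0.0362 to 4.22e-05 for HSPA8, -0.109 to 0.0195 for HSPE1, -0.0120 to 0.0875 for HSPH1, -0.0661 to 0.0281 for STIP1 and -0.0199 to 0.00890 for STUB1.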

Other observations

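HSPA6 lies in a cluster of Fc receptor genes on chromosome 1, which was looked at after its values were seen. FCGR2A, a receptor for IgG on the same strand, ends 232 bases before HSPA6 starts (hg19 161475220 to 161493803 against 161494036 to 161496681). FCGR2A rose from 33.9 ± 1.13 CPM (MOCK) to 57.4 ± 2.94 CPM (RRM2_OE, n = 4 and ± SD for both; log2 fold change 0.76, edgeR adjusted p = 5.84e-06), beside 0.88 for HSPA6. FCGR2B, further along the same strand, rose by 0.20 on the log2 scale (edgeR adjusted p = 0.0437), and FCGR2C gave 0.09. FCGR3A, on the opposite strand, gave -0.55 (edgeR adjusted p = 0.133). Whether reads that run past the end of FCGR2A contribute to the 165 counts of HSPA6 was not tested.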
